A study of Mus musculus with 114 samples.

Results

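The adipocytes of mice kept on chow diet (CD) for 20 weeks were compared with those of mice kept on CD for 8 weeks, to describe how the fat cell transcriptome moves with time on CD. The methods give alternative control diets without saying which group received which, so whether both groups ate the same one is not known. All animals were male C57BL/6 mice (substrain C57BL/6J by the methods), and the labels name no engineered allele. They were placed on their diet at 6 weeks of age, so the groups were 14 and 26 weeks old at harvest, and time on CD cannot be told apart from age. By the methods, mice were harvested on the last day of their time point. The session of harvest and digestion therefore cannot be told apart from time either. Each group held 6 mice, and these 12 mice were taken from 38 in the series, whose other groups received a high fat diet (HFD) for 8, 20 or 34 weeks or CD for 34 weeks. RNA was taken from the floating fraction of collagenase-digested perigonadal white adipose tissue of fasted mice, which is rich in adipocytes but is not sorted and can carry other cells. The 12 CD mice had 10562845 to 14292115 reads assigned to genes. Levels are given in CPM (each gene's reads scaled to a fixed total of reads per mouse), and 9927 of the 29132 genes in the table had a mean log2(CPM + 1) above 2 over the 12 mice and were tested.

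White adipocytes store triglyceride and secrete adipokines, and they also carry receptors for microbial products and cytokines. Those receptors feed into NF-κB, a family of dimeric transcription factors that I-κB proteins hold in the cytoplasm until the I-κB kinase marks them for destruction. NF-κB switches on chemokines, cytokines and adhesion molecules together with its own inhibitors, among them I-κBα (Nfkbia) and the ubiquitin-editing enzyme A20 (Tnfaip3), which shut the response down. In perigonadal fat such genes are best known from obesity, where macrophages gather around dying adipocytes.

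The floating fraction had the profile of adipocytes in both groups. The median level of Adipoq, which encodes adiponectin, was 5580 CPM at 8 weeks and 5881 CPM at 20 weeks, and that of the fatty acid carrier Fabp4 was 14863 and 15157 CPM. Of the defining adipocyte genes Adipoq, Plin1, Fabp4, Cidec and Lipe, none passed the test between the groups, with log2 changes from -0.25 for Lipe to 0.09 for Adipoq. Sequencing depth did not overlap between the CD groups, being 10562845 to 12611013 reads at 8 weeks and 13091365 to 14292115 at 20 weeks, so depth and time cannot be told apart in CD. In HFD the depths did overlap, at 13201234 to 15480388 and 13159018 to 14961360 reads. In a principal component analysis of the 12 mice, the first component held 38.4% of the variance and the second 25.04%, and mice 1 and 3 of the 20-week group lay apart from the others.

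Expression of 530 genes differed between 20 and 8 weeks of CD, which was 5.34% of the 9927 genes tested by limma with Benjamini-Hochberg adjusted p under 0.05. These differentially expressed genes (DEGs) were 281 that rose (2.83%) and 249 that fell (2.51%). Rises were larger than falls, since 103 DEGs were at least 2-fold higher and 28 at least 2-fold lower. In 376 genes (3.79%) the 6 mice of one group lay wholly above or below the 6 mice of the other, 191 of them higher and 185 lower at 20 weeks, and 304 of these genes were also DEGs. The median log2 change over all genes tested was -0.03. The count of DEGs depended on single mice. It was 889 without mouse 1 of the 20-week group, 332 and 275 without mice 1 and 3 of the 8-week group, 310 and 314 without mice 4 and 6 of the 20-week group, and 515 without both mice 1 and 3 of the 20-week group.

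Inflammatory genes led the rise. Ccl4, a chemokine that draws monocytes and T cells, had the largest change among the named DEGs whose groups did not overlap. Its lowest, median and highest levels were 0.757, 4.88 and 15.3 CPM at 8 weeks and 60.0, 103 and 155 CPM at 20 weeks. Every 20-week mouse was thus above every 8-week mouse, and the level was 18.01-fold higher (log2 change 4.17 ± 0.48 SE, adjusted p = 0.000397, n = 6 per group; all folds are on the log2(CPM + 1) scale). Oasl1, an interferon-induced member of the oligoadenylate synthetase-like family, moved from 1.06, 2.84 and 6.54 CPM to 40.2, 67.9 and 103 CPM, again without overlap and 16.9-fold (4.08 ± 0.37, adjusted p = 0.00012). The cytokine Il6 ranged from 7.58 to 28.1 CPM around a median of 16.1 at 8 weeks and from 76.2 to 484 CPM around a median of 228 at 20 weeks. These ranges did not meet, and the difference was 12.8-fold (3.68 ± 0.43, adjusted p = 0.000482). Vcam1, an adhesion molecule that holds leukocytes on vessel walls, had 3.79, 9.995 and 29.7 CPM at 8 weeks and 65.0, 134 and 308 CPM at 20 weeks, with no overlap and a 12.7-fold rise. Ccl3, whose gene neighbours Ccl4 on chromosome 11, rose 8.52-fold, from a median of 7.39 to 75.8 CPM. The annotated spans of Ccl3 (chr11:83647843-83649378) and Ccl4 (chr11:83648624-83664683, GRCm38) overlap, so reads in the shared stretch cannot be assigned to either gene with certainty.

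The other leading rises were the interferon-induced antiviral enzyme Rsad2 (8.16-fold), Tnfaip3 (7.36-fold), the small GTPase Rnd1 (7.09-fold), the guanylate-binding protein Gbp5 (6.86-fold) and the TNF-induced gene Tnfaip2 (6.05-fold). Rnd1, which loosens the actin cytoskeleton, stood at 42.8 to 80.6 CPM in the 8-week mice and 247 to 785 CPM in the 20-week mice. Gbp5 stood at 21.4 to 75.4 and 153 to 546 CPM, and it has close paralogs among which reads may be shared. Neither range met its counterpart. Each of these 10 genes stayed a DEG under all 27 alternative settings tried for it.

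**Figure D1:**
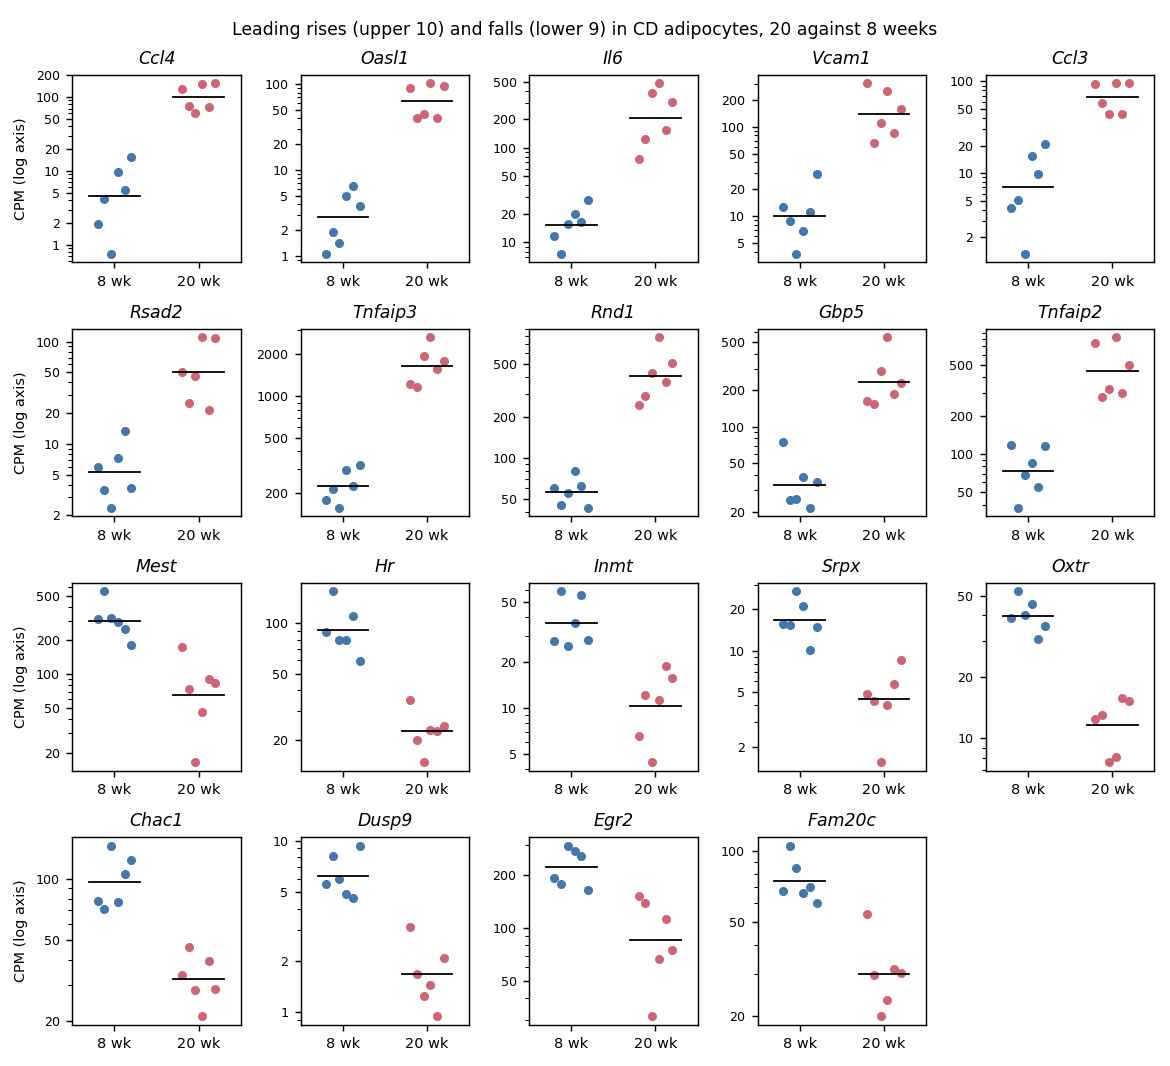
Level in CPM (log axes) of the 10 largest rises and 9 of the largest falls among DEGs whose groups did not overlap, with a point per mouse (6 per group) and a line at the mean of log2(CPM + 1) turned back to CPM. In every panel all 20-week CD mice lie on the same side of all 8-week CD mice, from 18.01-fold higher for Ccl4 to 2.43-fold lower for Fam20c.

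The genes of the NF-κB system rose together, as subunits, inhibitors and targets. These small families were completed from the same pathway after the values were seen, so their counts describe the pathway and carry no test of their own. All 5 NF-κB subunit genes were higher at 20 weeks. Rela rose from 143, 161 and 195 CPM (lowest, median, highest) to 236, 273 and 355 CPM, and Rel from 17.6, 27.5 and 39.7 CPM to 51.3, 67.7 and 87.8 CPM. Neither gene overlapped between the groups, and the log2 changes were 0.77 ± 0.10 (adjusted p = 0.000854) and 1.25 ± 0.17 (adjusted p = 0.00155). Nfkb2 (1.19 ± 0.13), Relb (0.91 ± 0.11) and Nfkb1 (0.92 ± 0.20) rose as well, and of the 5 only Nfkb1 had overlapping groups.

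Of 6 genes for I-κB proteins, 4 rose. Nfkbia, which encodes I-κBα, moved from 234, 300 and 424 CPM to 744, 1019 and 1340 CPM, without overlap (3.32-fold, 1.73 ± 0.18, adjusted p = 0.000281). Nfkbiz, a nuclear I-κB needed for a subset of NF-κB targets, rose 3.37-fold, Nfkbie 3.29-fold and Nfkbib 2.10-fold. Nfkbid (0.98 ± 0.47, adjusted p = 0.222) and Bcl3 (0.53 ± 0.16, adjusted p = 0.0661) did not pass. Among 6 other brakes on the pathway, Tnfaip3 rose from 157, 220 and 319 CPM to 1165, 1680 and 2662 CPM with the smallest adjusted p of the named genes (7.94e-05). Its A20-binding partners Tnip1 and Tnip2 rose 3.69-fold and 1.67-fold, and the ribonuclease Zc3h12a, which degrades cytokine mRNAs, rose 3.28-fold from a median of 99.2 to 294 CPM. Tnip3 (1.57 ± 0.45, adjusted p = 0.0629) and the deubiquitinase Cyld (-0.27 ± 0.08, adjusted p = 0.0766) did not pass.

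The I-κB kinase itself was not among the DEGs. Its catalytic subunits Chuk and Ikbkb had log2 changes of 0.03 ± 0.06 and -0.04 ± 0.08, and its regulatory subunit Ikbkg -0.07 ± 0.07. Over a wider group of 16 kinases and adaptors, 8 rose, led by the ubiquitin ligases Birc3 (4.51-fold, medians 41.6 and 162 CPM) and Birc2 (2.08-fold, 48.6 and 102 CPM). The other 6 were Map3k8, Ripk2, Myd88, Traf5, Tank and Tbk1, with log2 changes from 0.34 for Tank to 0.98 for Map3k8. Of 12 receptors, 3 rose. Tlr2, which senses bacterial lipoproteins, went from 17.2, 34.0 and 78.4 CPM to 119, 171 and 271 CPM without overlap (5.04-fold, adjusted p = 0.00155). The interferon receptor chains Ifnar1 and Ifnar2 rose 1.33-fold and 1.35-fold. Tlr4, the receptor for lipopolysaccharide, was at 49.2 to 75.8 CPM and 50.6 to 61.6 CPM, overlapping groups that did not differ by the test (-0.10 ± 0.10, adjusted p = 0.556).

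**Figure D2:**
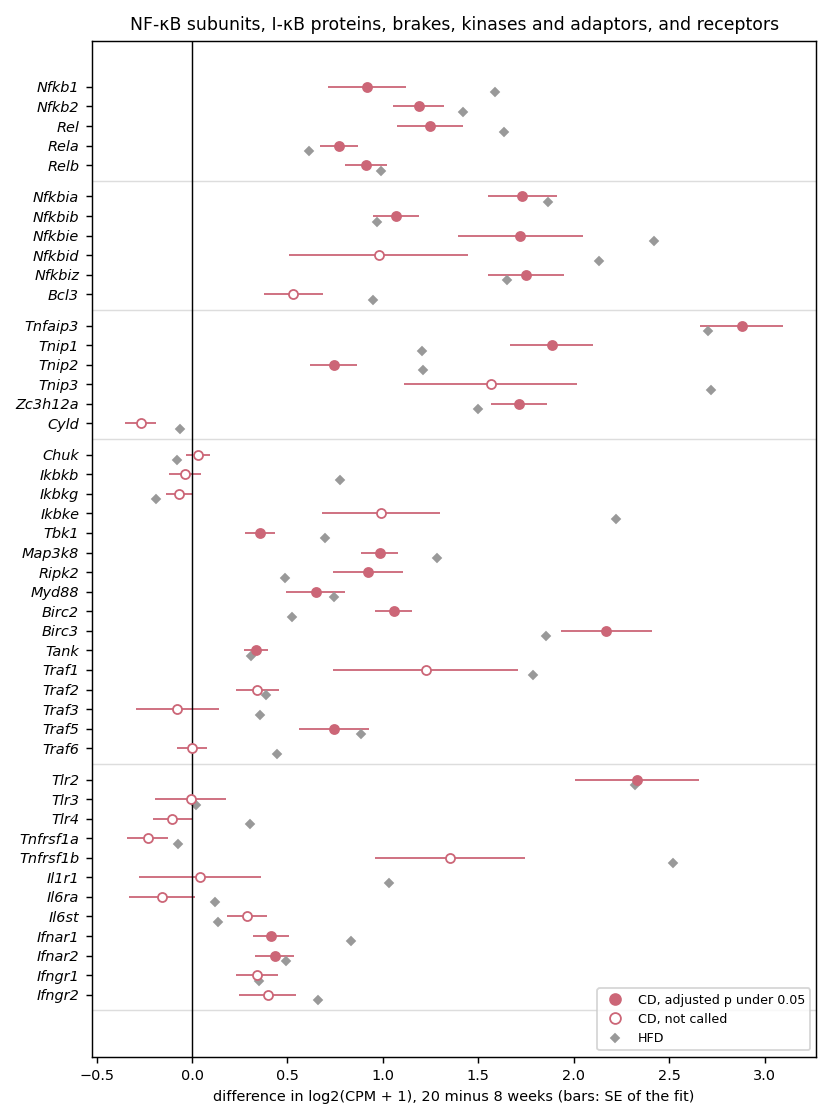
Difference in log2(CPM + 1), 20 minus 8 weeks, for each member of the NF-κB families, separated by lines, in CD mice (circles, filled where adjusted p was under 0.05, bars are SE of the fit) and in HFD mice (diamonds), 6 mice per group. All 5 subunit genes lie right of 0 in CD, from 0.77 for Rela to 1.25 for Rel, while the kinase subunits Chuk, Ikbkb and Ikbkg lie near 0.

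Promoters are shown for 7 of the risen genes, because these genes hold short motifs of the transcription factors whose genes and targets moved. The κB motif was searched as GGG, any 2 bases, then TTTCC, and an interferon response motif (ISRE-like) as GAAA, any 2 bases, then GAAA, on both strands, over the 250 bases before and 50 bases after each start site in RefSeq (GRCm38.p6). The 2 patterns were searched apart from each other, so their matches could overlap. Each line gives the 250 bases before the start, 5′ to 3′ on the gene's strand, with the motif matches in capitals.
Nfkbia promoter, chr12:55492648-55492897, minus strand: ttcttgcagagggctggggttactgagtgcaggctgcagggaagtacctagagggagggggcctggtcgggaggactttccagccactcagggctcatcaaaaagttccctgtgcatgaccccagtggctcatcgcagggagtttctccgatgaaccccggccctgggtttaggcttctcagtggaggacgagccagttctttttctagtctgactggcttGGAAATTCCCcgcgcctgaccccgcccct
Tnfaip3 promoter, chr10:19015411-19015660, minus strand: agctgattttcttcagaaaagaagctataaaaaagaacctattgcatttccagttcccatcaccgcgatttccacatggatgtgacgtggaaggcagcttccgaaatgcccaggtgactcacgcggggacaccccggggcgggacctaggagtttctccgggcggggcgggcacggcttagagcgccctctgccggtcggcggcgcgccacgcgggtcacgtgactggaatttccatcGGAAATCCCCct
Il6 promoter, chr5:30012864-30013113, plus strand: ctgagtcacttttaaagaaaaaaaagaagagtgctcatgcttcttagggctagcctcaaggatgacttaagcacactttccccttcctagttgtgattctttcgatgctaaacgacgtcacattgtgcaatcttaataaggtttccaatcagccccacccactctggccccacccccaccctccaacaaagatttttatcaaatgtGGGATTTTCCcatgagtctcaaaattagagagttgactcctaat
Cxcl1 promoter, chr5:90890995-90891244, plus strand: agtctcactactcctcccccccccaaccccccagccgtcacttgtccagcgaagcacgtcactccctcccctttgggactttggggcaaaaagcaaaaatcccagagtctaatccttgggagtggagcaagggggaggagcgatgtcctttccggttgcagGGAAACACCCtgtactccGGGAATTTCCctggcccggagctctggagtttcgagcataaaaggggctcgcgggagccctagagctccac
Gbp5 promoter, chr3:142496684-142496933, plus strand: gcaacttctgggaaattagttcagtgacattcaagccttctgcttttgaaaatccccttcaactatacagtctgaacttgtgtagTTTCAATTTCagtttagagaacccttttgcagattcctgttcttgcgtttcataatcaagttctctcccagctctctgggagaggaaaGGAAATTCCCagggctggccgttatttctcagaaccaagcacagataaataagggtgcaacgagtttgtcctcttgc
Cxcl10 promoter, chr5:92348890-92349139, minus strand: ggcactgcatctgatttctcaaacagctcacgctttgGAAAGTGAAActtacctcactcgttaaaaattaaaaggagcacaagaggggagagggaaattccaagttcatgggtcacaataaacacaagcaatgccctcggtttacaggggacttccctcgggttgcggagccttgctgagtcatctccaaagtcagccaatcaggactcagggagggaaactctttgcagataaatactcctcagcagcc
Rsad2 promoter, chr12:26456453-26456702, minus strand: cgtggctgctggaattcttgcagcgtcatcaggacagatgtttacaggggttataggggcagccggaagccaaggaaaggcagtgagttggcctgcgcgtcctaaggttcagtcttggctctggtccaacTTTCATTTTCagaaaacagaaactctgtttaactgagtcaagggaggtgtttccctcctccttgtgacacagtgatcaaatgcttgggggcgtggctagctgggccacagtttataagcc
The matches read forward or as the reverse complement, and their first bases lay 29 bases before the start in Nfkbia, 12 in Tnfaip3, 44 in Il6, 89 and 71 in Cxcl1, and 77 in Gbp5 for the κB motif. For the ISRE-like motif they lay 165 bases before the start in Gbp5, 213 in Cxcl10 and 120 in Rsad2. Gbp5 thus held both motifs, Cxcl1 held the κB motif at 2 places, and the others shown held a single match.

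The κB motif was present in 512 of 27025 genes with a RefSeq window (1.895%) and in 168 of 7976 such genes among those tested (2.106%). It was found in 14 of the 215 DEGs that rose and had a window (6.512%), in 10 of 77 that were at least 2-fold higher (12.99%) and in 4 of 186 that fell (2.151%). The 10 genes were Cxcl1, Cxcl2, Cxcl3, Gbp5, Il6, Nfkb2, Nfkbia, Rel, Tifa and Tnfaip3. The ISRE-like motif was in 3.993% of all genes, 3.661% of those tested, 15 of 215 that rose (6.977%), 8 of 77 at least 2-fold higher (10.39%) and 6 of 186 that fell (3.226%). The 8 genes were Cxcl10, Gbp3, Gbp5, Ifi205, Ifih1, Ifit1, Isg15 and Rsad2. These shares are descriptions of the sequence, and neighbouring genes such as Cxcl1, Cxcl2 and Cxcl3 come from a single gene cluster.

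Chemokines and cytokines made up the list with the largest share of DEGs among the lists of 5 or more tested genes. Of 32 tested members (38 listed), 13 rose and none fell, with a median log2 change of 1.45 against -0.03 over all genes. This was 40.6% of the tested members, beside 5.34% of all genes, the share beside which the other list counts below stand. Cxcl1, which recruits neutrophils, rose from 350, 406 and 580 CPM to 1086, 1221 and 2207 CPM (3.18-fold, adjusted p = 0.000397), and the groups did not overlap. Cxcl16 went from 6.28, 8.12 and 16.5 CPM to 22.9, 41.7 and 54.2 CPM (3.89-fold), also without overlap. Ccl2, the main monocyte attractant, went from 147, 289 and 394 CPM to 440, 695 and 1224 CPM (2.64-fold, adjusted p = 0.0153).

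Cytokines with low to moderate levels at 8 weeks rose as well. Tnf had 9.85, 21.5 and 80.2 CPM at 8 weeks and 69.8, 133 and 468 CPM at 20 weeks, so the highest 8-week mouse was above the lowest 20-week mouse (6.09-fold, adjusted p = 0.0114). Il1a (medians 1.11 and 26.3 CPM, 8.78-fold), Csf3 (1.40 and 24.7 CPM, 8.09-fold), Lif (1.06 and 18.9 CPM, 6.71-fold) and Ccl5 (0.387 and 13.7 CPM, 6.54-fold) rose too, although the groups met for each of the 4. Their 8-week medians lay under the level cut, so these 4 were tested because of their 20-week values. Il1a lost the call in 9 and Ccl5 in 4 of 27 alternatives, in both cases with edgeR and DESeq2 among them. Ccl5 is counted among the 13 risen members of the list. The neutrophil attractants Cxcl2, Cxcl3 and Cxcl5 rose 4.99-fold, 5.51-fold and 2.82-fold. Il1b did not pass (1.95 ± 1.01, adjusted p = 0.258), and its range at 8 weeks, 1.14 to 204 CPM, spanned that at 20 weeks, 14.3 to 169 CPM. The list's count was 10 to 19 when single mice were left out, the 19 being without mouse 6 of the 8-week group, and 11 without mice 1 and 3 of the 20-week group.

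Interferon-stimulated genes rose in part. Of 30 tested, 8 rose and none fell, with a median log2 change of 0.37. Beside Oasl1 and Rsad2, the T cell attractant Cxcl10 went from 272, 338 and 409 CPM to 807, 1211 and 2100 CPM, with no overlap (3.56-fold, adjusted p = 0.000329). Gbp3 rose 3.01-fold, the RNA sensor Ifih1 2.05-fold, the ubiquitin-like modifier Isg15 3.31-fold, Ifit1 3.20-fold and Oas2 2.31-fold. Genes of antigen presentation had a median of 0.59, with 16 of 17 above 0, and the 3 that rose were the class I genes H2-Q6 (2.83-fold), H2-Q7 (2.18-fold) and H2-Q4 (1.59-fold). These H2-Q genes are near-identical copies, and how reads were divided among them is uncertain.

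Complement and acute phase genes had a DEG in each direction among 27 tested (7.41%), near the 5.34% of all genes tested. Ptx3, a soluble pattern recognition protein, rose from 487, 889 and 1146 CPM to 1103, 1776 and 3007 CPM (2.15-fold, adjusted p = 0.0262), and complement C2 fell from a median of 194 to 109 CPM (1.69-fold lower). Among glucocorticoid targets the phosphatase Dusp1 was the DEG of 17 tested (1.72-fold higher, 129 to 201 CPM against 233 to 366 CPM). Gadd45b, a stress-response gene, rose 3.25-fold from a median of 65.8 to 232 CPM, and with the antioxidant regulator Sesn1 (1.31-fold) it was higher in the list of cell cycle arrest and p53 targets, in which Phlda3 (2.10-fold lower) and Zmat3 (1.40-fold lower) fell, of 22 tested. None of 12 tested proliferation genes passed, Mki67 having 0.897 to 14.2 CPM and 2.58 to 59.4 CPM (adjusted p = 0.164).

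Markers of macrophages were higher at 20 weeks in every tested member, but few passed the test. The summed level of 22 macrophage markers was 501, 888 and 2182 CPM (lowest, median, highest) at 8 weeks and 1155, 2082 and 4629 CPM at 20 weeks, so the groups overlapped, and no marker was at 0. In the 8-week group mice 1, 2 and 3 were at 501 to 583 CPM and mice 4, 5 and 6 at 1193 to 2182 CPM, and mouse 1 was the highest at 20 weeks. All 18 tested markers had a positive log2 change, with a median of 1.08, and the lipopolysaccharide co-receptor Cd14 was the DEG (2.53-fold, medians 151 and 403 CPM). Csf1r, the receptor for macrophage colony-stimulating factor, was at 26.9 to 152 CPM and 47.2 to 284 CPM, and Cd68 at 14.2 to 69.0 and 20.5 to 200 CPM. In bulk RNA, more cells of a type and more RNA per cell cannot be told apart. With the mean macrophage marker level as a covariate, 493 genes passed (260 higher, 233 lower), and 312 of the 530 DEGs were among them. In that fit 10 chemokine and cytokine genes were higher and 2 lower, with a median of 0.74, and 7 interferon-stimulated genes were higher.

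Other cell types were scarce or overlapped between the groups. Summed markers of lipid-associated macrophages were at 5404 to 6785 CPM at 8 weeks and 5426 to 10795 CPM at 20 weeks, where a single mouse lay far above the others, and none of 17 tested was a DEG. The 17 T and NK cell markers summed to 1.63 to 8.17 CPM and 2.28 to 31.0 CPM, with 13 of them under 1 CPM in all 12 mice and Gzmb at 0, and none was tested. Endothelial markers summed to 50.8 to 463 CPM and 86.7 to 339 CPM, with all 13 tested above 0 in log2 change (median 0.56) and none a DEG. Mesothelial markers summed to 15.8 to 46.0 CPM and 28.3 to 118 CPM, and the mesothelial gene Upk3b rose 2.46-fold, the DEG of 4 tested. Of 13 tested markers of progenitors and fibroblasts, the adhesion molecule Icam1 (3.59-fold) and the complement regulator Cd55 (1.73-fold) rose and the guidance cue Sema3c fell (1.86-fold lower). The myelin gene Mbp, of 2 tested nerve markers, fell 1.31-fold. No tested marker of B and plasma cells (1 tested), neutrophils and mast cells (2), mural and smooth muscle (9), erythroid cells and platelets (2) or skeletal muscle (2) was a DEG, and none of 31 epididymis and testis markers was abundant enough to be tested. The part of these cells in the rises was not tested apart from the macrophage covariate.

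**Figure D3:**
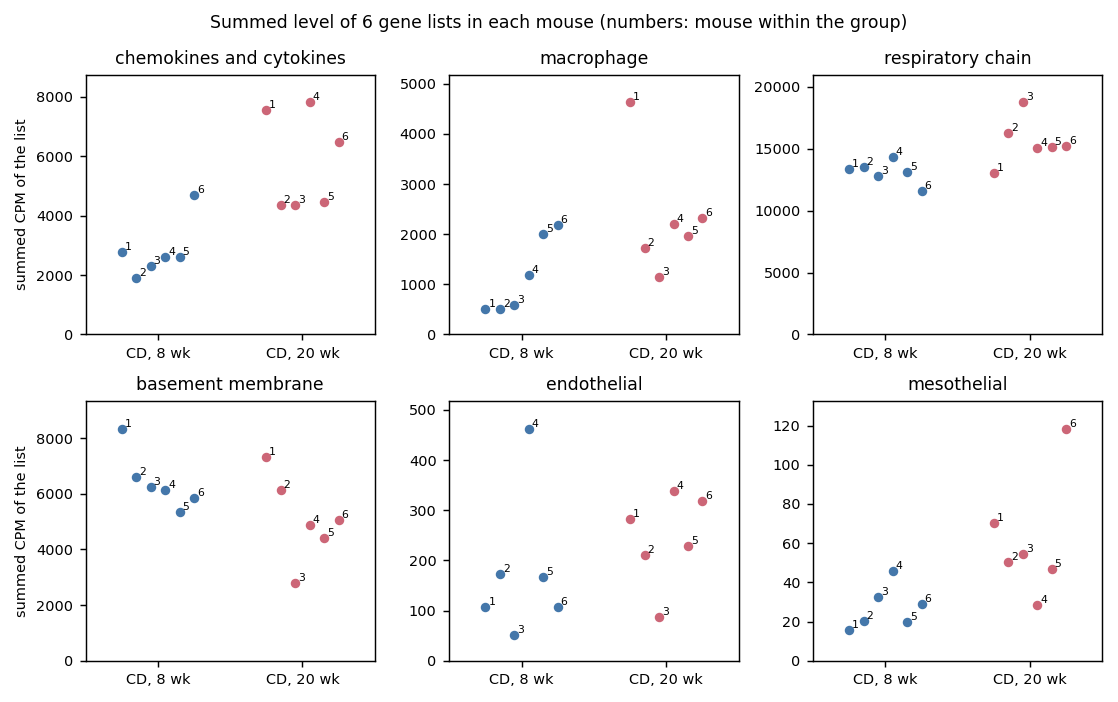
Summed CPM of the listed genes of 6 lists in each of the 12 CD mice (a point per mouse, numbered within its group, vertical axes in CPM from 0). The macrophage sum overlaps between 8 weeks (501 to 2182 CPM) and 20 weeks (1155 to 4629 CPM), and so does the respiratory chain sum (11582 to 14359 CPM and 13035 to 18754 CPM).

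The largest falls were spread over genes of different functions. Mest, an imprinted gene whose level follows the growth of fat pads, fell from 181, 302 and 546 CPM to 16.5, 78.6 and 173 CPM. The groups did not overlap, and the level was 4.54-fold lower (log2 change -2.18 ± 0.45, adjusted p = 0.0153). Hr, a transcriptional corepressor of nuclear receptors, fell from 59.6, 84.4 and 156 CPM to 14.7, 22.7 and 34.8 CPM, also without overlap (3.93-fold lower, adjusted p = 0.000397). Mest was the DEG among 13 tested genes of fat pad expansion, of which 11 had a negative change. The list median was -0.45, against -0.03 over all genes.

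Oxtr, the oxytocin receptor, was at 30.6, 39.5 and 52.4 CPM at 8 weeks and 7.65, 12.7 and 15.8 CPM at 20 weeks. It was lower in every 20-week mouse than in any 8-week mouse (3.24-fold, adjusted p = 0.000329). Inmt, a methyltransferase of indole amines, fell 3.29-fold, Srpx 3.25-fold and Chac1, which breaks down glutathione, 2.97-fold. The MAP kinase phosphatase Dusp9 fell 2.71-fold, the zinc finger factor Egr2 2.58-fold and the secretory pathway kinase Fam20c 2.43-fold. Egr2 lost its call under 7 of 27 alternatives, and the other falls named here stayed DEGs under all of them.

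All 15 tested genes of Wnt and Hedgehog signalling had a negative log2 change, with a median of -0.35, and 3 of them fell. These were the Hedgehog effector Gli2 (medians 7.44 and 2.46 CPM, 2.29-fold lower), the Wnt receptor Fzd5 (31.7 and 21.5 CPM, 1.57-fold lower) and its co-receptor Lrp6 (171 and 145 CPM, 1.20-fold lower). In the Hippo pathway, which controls the transcriptional coactivator Yap1, the scaffold gene Ajuba fell 2.28-fold and Amotl2 2.59-fold, and the other 6 of 8 genes did not pass. The Hippo genes, like the Smad group below, were collected after the values were seen.

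TGF-beta and activin signalling had 6 DEGs of 28 tested, 2 higher and 4 lower, with a median of -0.16. Smad7, an inhibitory Smad that is itself induced by TGF-beta, fell from 88.1, 95.8 and 111 CPM to 26.0, 47.0 and 73.6 CPM, without overlap (2.02-fold lower, adjusted p = 0.012). Ltbp1, which tethers latent TGF-beta to the matrix, fell 1.84-fold, the activin-binding protein Fstl3 1.74-fold and the BMP receptor Bmpr1a 1.32-fold. Bmp2 (1.67-fold) and the Smad co-repressor Skil (1.65-fold) rose. Among 6 genes of Smad feedback, 4 fell, Pmepa1 (1.93-fold, medians 383 and 192 CPM) and Ski (1.35-fold) beside Smad7 and Fstl3, and Skil was the gene that rose.

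Few matrix genes passed the test in CD. None of 24 tested genes for fibrillar collagens and their processing passed, and their summed level was 4122, 4672 and 5622 CPM at 8 weeks and 2192, 3728 and 4987 CPM at 20 weeks. The groups overlapped, and 19 of the 24 genes had a negative change (median -0.27). In the basement membrane list the laminin chains Lama4 (medians 537 and 352 CPM, 1.65-fold lower) and Lama3 (1.82-fold lower) fell, of 20 tested, and the list had a median of -0.36, with 14 of 20 negative. These chains were 10% of that list, beside 5.34% of all genes tested. The protease Adamts1 fell 1.63-fold, the DEG among 24 matrix glycoproteins and remodelling genes (median -0.11). With the macrophage covariate the medians of these 3 matrix lists were -0.40, -0.50 and -0.39, and 2, 2 and 4 of their genes fell. None of 44 tested genes of actin and focal adhesion passed, with a median of -0.15, and Itga5 (1.14 ± 0.35, adjusted p = 0.0795) and Actn4 (-0.27 ± 0.08, adjusted p = 0.054) came nearest.

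Genes of the respiratory chain were slightly higher. Of 75 tested, 74 had a positive log2 change, with a median of 0.24 against -0.03 over all genes, and 11 were DEGs, all higher. Cox4i1, a subunit of complex IV, went from 340, 388 and 413 CPM to 431, 520 and 658 CPM, without overlap (1.37-fold, adjusted p = 0.0129). Atp5o of complex V went from 133, 149 and 164 CPM to 173, 186 and 226 CPM, again without overlap (1.29-fold, adjusted p = 0.0142). Uqcr11 of complex III rose 1.33-fold and Cox6b1 of complex IV 1.26-fold, with overlapping groups.

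The respiratory complexes had similar medians. The median log2 change was 0.23 over 37 genes of complex I, 0.22 over 4 of complex II, 0.26 over 9 of complex III, 0.29 over 10 of complex IV and 0.26 over 15 of complex V, with 3, 0, 2, 4 and 2 DEGs. The count of respiratory DEGs was sensitive to single mice, from 2 without mouse 3 of the 8-week group to 49 without mouse 1 of the 20-week group, and was 23 without mice 1 and 3 of the 20-week group. It was 4 with TMM and 3 with median-of-ratios scaling, under which the list medians were 0.26 and 0.26, and 38 with the macrophage covariate.

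Other mitochondrial and ribosomal lists shared the sign with few DEGs. Mitochondrial ribosome genes were positive in 61 of 75 (median 0.09), with Mrps18c the DEG (1.21-fold). Cytosolic ribosome genes were positive in 75 of 76 (median 0.13), with 5 DEGs, of which Rps14 rose 1.33-fold, Fau 1.23-fold and Rpl18 1.16-fold. The 5 were 6.58% of that list, near the 5.34% of all genes tested. Genes of the TCA cycle and branched-chain amino acid breakdown were positive in 32 of 35 (median 0.13), and none passed. Mitochondrial ribosomal RNA, which poly(A) selection leaves in varying amount, went the other way, with mt-Rnr2 at 1054 to 2950 CPM and 773 to 1167 CPM (2.04-fold lower, adjusted p = 0.015) and mt-Rnr1 at 889 to 4209 CPM and 451 to 1884 CPM (adjusted p = 0.0633).

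**Figure D4:**
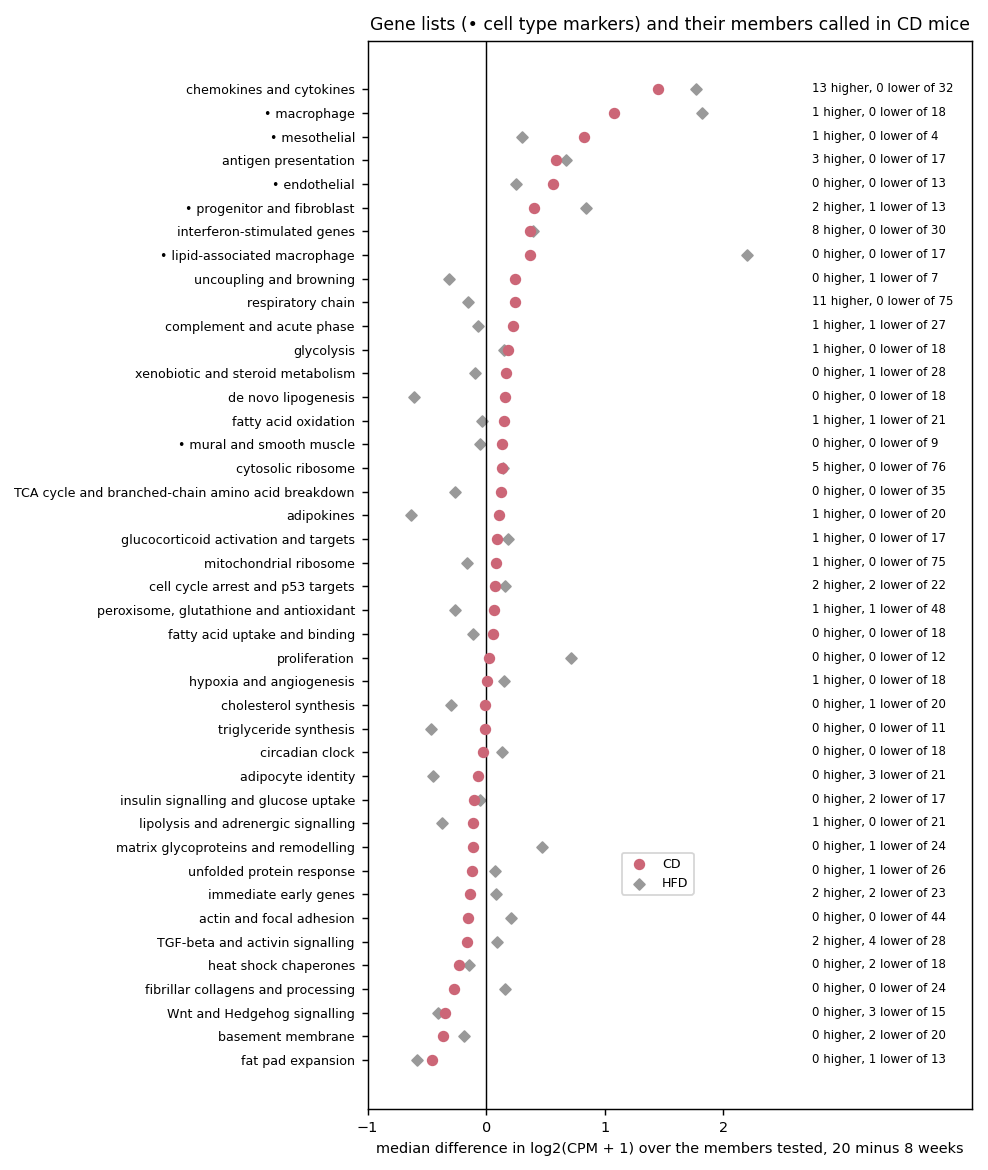
Median difference in log2(CPM + 1), 20 minus 8 weeks, over the tested members of each gene list in CD (circles) and HFD (diamonds), with the numbers of CD DEGs at the right and cell type lists marked by a dot. Chemokines and cytokines have the highest CD median (1.45, 13 of 32 higher), and fat pad expansion the lowest (-0.45).

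Lipid metabolism was largely level between 8 and 20 weeks of CD. None of the tested genes of de novo lipogenesis (18), triglyceride synthesis (11) or fatty acid uptake and binding (18) passed. Acss2 (1.61-fold, adjusted p = 0.0798) and Slc25a1 (1.61-fold, adjusted p = 0.109), which supply cytosolic acetyl-CoA, came nearest in the first list, and Aqp7 and Dgat2 in the second (adjusted p = 0.17 and 0.211). In fatty acid oxidation, 21 genes were tested, and the nuclear receptor Ppara fell (medians 12.8 and 7.28 CPM, 1.66-fold lower) while Hadha of the mitochondrial trifunctional protein rose (1.20-fold). Ppara and Hadha were 9.52% of that list, beside 5.34% of all genes tested. Sc5d, a late enzyme of cholesterol synthesis, fell 1.53-fold, the DEG of 20.

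Some genes of adipocyte identity and insulin action fell. Of 21 identity genes, the transcription factors Cebpa (524, 691 and 745 CPM to 368, 432 and 580 CPM, 1.44-fold lower, adjusted p = 0.0316) and Ebf1 (1.26-fold lower) and the co-repressor Tle3 (1.35-fold lower) fell, and no other passed. No identity gene passed without mouse 3 of the 20-week group, without mice 1 and 3 together, or with the macrophage covariate. Of 17 genes of insulin signalling and glucose uptake, the adaptor Irs1 fell from 45.3, 51.2 and 73.8 CPM to 27.7, 33.8 and 39.3 CPM, without overlap (1.64-fold lower, adjusted p = 0.00713). Grb14, an inhibitor of the insulin receptor, fell 2.70-fold with overlapping groups. Among 20 adipokines, Metrnl rose from 12.4, 19.4 and 23.5 CPM to 35.3, 48.6 and 66.0 CPM (2.56-fold) without overlap, and retinol-binding protein Rbp4 did not pass (1.40-fold, adjusted p = 0.0687).

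The remaining lists held few DEGs. Of the named DEGs, Pdk1, Hif1a, Hadha, Hsp90ab1, Mrps18c, Sesn1, Rpl18, Acaa1b, Dhrs3, Cd55 and Upk3b each lost the call in 14 to 18 of 27 alternatives. In glycolysis Pdk1 rose 1.32-fold (of 18 tested), in hypoxia and angiogenesis Hif1a rose 1.45-fold (of 18), and in uncoupling and browning Ucp3 fell 1.89-fold (of 7). Heme oxygenase Hmox1 fell from 530, 1080 and 1943 CPM to 366, 451 and 612 CPM (2.43-fold lower), and the peroxisomal thiolase Acaa1b rose 1.38-fold, of 48 genes of peroxisome, glutathione and antioxidant defence. Dhrs3, which reduces retinal, fell 1.38-fold (of 28 genes of xenobiotic and steroid metabolism). The chaperones Dnaja1 and Hsp90ab1 fell 1.32-fold and 1.19-fold (of 18), and Chac1 was the DEG of 26 genes of the unfolded protein response. Of 23 immediate early genes, Klf2 (2.08-fold) and Dusp1 rose and Egr2 and Myc (1.40-fold lower) fell. None of 18 circadian clock genes passed, nor did any of 7 dissociation-sensitive genes, a set collected after the values were seen. Of the dissociation-sensitive genes, Fos (-0.59 ± 0.23), Jun (-0.38 ± 0.21), Egr1 (-0.64 ± 0.22), Fosb (-0.11 ± 0.13) and Atf3 (-0.12 ± 0.11) had negative changes. Junb (0.06 ± 0.13) and Ier3 (0.68 ± 0.19, adjusted p = 0.0577) had positive ones. The part of tissue handling in the rises was not tested, and 7 genes picked after the values were seen cannot show it.

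Mice on HFD gave the same contrast under another diet, with 8-week mice of their own. By the methods they too were harvested by time point. Age and the session of harvest thus cannot be told apart from time in HFD either, and a session could be shared by both diets. The change from 8 to 20 weeks differed between HFD and CD in 2543 of 9927 genes (25.6%) by the interaction term over 24 mice, and in 457 when all 6 groups of the series were fitted together. Of the 530 CD DEGs, 140 were among the 2543, 78 of those that rose and 62 of those that fell. The sign in HFD was the same for 440 of the 530. The risen DEGs had a median log2 change of 0.77 in CD and 0.61 in HFD, and the fallen ones -0.54 and -0.28. Since the DEGs were chosen by their change in CD, a smaller change in HFD follows in part from that choice, and these medians are not a comparison of the diets.

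The inflammatory genes moved in both diets. Il6 was at 7.50 to 22.8 CPM after 8 weeks of HFD and 58.9 to 185 CPM after 20 weeks, a change of 2.89 ± 0.40 that did not differ from that in CD by the test (interaction adjusted p = 0.309). Tnfaip3 changed by 2.71 ± 0.22, Nfkbia by 1.86 ± 0.16 and Cxcl10 by 1.76 ± 0.25 in HFD, with interaction adjusted p of 0.706, 0.693 and 0.893. The chemokine list had an HFD median of 1.77 and 1 member, Ccl8, whose change differed (2.21 ± 0.54 in CD, 0.05 ± 0.55 in HFD, adjusted p = 0.0439). No NF-κB subunit or I-κB gene differed between the diets by the test. Those that did were 5 of 16 kinases and adaptors, 1 of 6 brakes and 1 of 12 receptors, beside 25.6% of all genes tested. The kinase subunit Ikbkb stood at -0.04 in CD and 0.78 in HFD (interaction adjusted p = 4.84e-05), Tbk1 at 0.36 and 0.70 (0.0242), Tnip2 at 0.74 and 1.21 (0.0218) and Birc2 at 1.06 and 0.52 (0.0153), while Ikbke and Traf6 differed too. The read depths at 8 and 20 weeks overlapped in HFD but not in CD, and the part of depth in these changes was not tested.

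The respiratory chain separated the diets. Its median change was 0.24 in CD and -0.15 in HFD, and for 61 of the 75 genes the change differed by the test, in every case more negative in HFD. Uqcr11 was at 128 to 163 CPM at 8 weeks and 115 to 143 CPM at 20 weeks of HFD (-0.21 ± 0.09, against 0.41 ± 0.09 in CD, interaction adjusted p = 0.00125). The mitochondrial ribosome list had 31 such genes of 75, de novo lipogenesis 9 of 18 and the TCA cycle list 12 of 35, all more negative in HFD, beside 25.6% of all genes tested that differed in either direction. Rbp4 changed by 0.48 ± 0.14 in CD and -1.36 ± 0.17 in HFD (adjusted p = 6.49e-05), and Adipoq by 0.09 ± 0.10 and -0.51 ± 0.12 (adjusted p = 0.0139). In the joint fit of all groups, where 457 genes differed, these list counts were not taken. The summed macrophage markers had medians of 2654 and 9190 CPM at 8 and 20 weeks of HFD, against 888 and 2082 CPM in CD. The part of the cell mix in these differences was not tested.

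Of the 249 DEGs that fell in CD, 62 differed between the diets, a share near that of all genes tested. Ltbp1 changed by -0.88 ± 0.15 in CD and 0.76 ± 0.16 in HFD (adjusted p = 6.83e-05), Lama3 by -0.86 ± 0.21 and 0.34 ± 0.20 (adjusted p = 0.00461) and Srpx by -1.70 ± 0.29 and 0.29 ± 0.27 (adjusted p = 0.000968). Grb14 and Inmt, which fell in CD, had HFD changes of 0.37 ± 0.29 and 0.57 ± 0.44 (interaction adjusted p = 0.00381 and 0.0101). Lama4, Adamts1, Fzd5, Lrp6, Bmpr1a, Fstl3 and Amotl2 fell in CD, and their changes did not differ between the diets by the test (interaction adjusted p from 0.0516 to 0.854). The falls of Smad7 (-0.98 ± 0.20 in HFD) and Pmepa1 (-0.99 ± 0.16) had interaction adjusted p of 0.933 and 0.909. Of 8 Hippo genes 2 differed between the diets, a share near the 25.6% of all genes tested, Ajuba among them (-1.19 ± 0.25 in CD, 0.12 ± 0.22 in HFD).

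**Figure D5:**
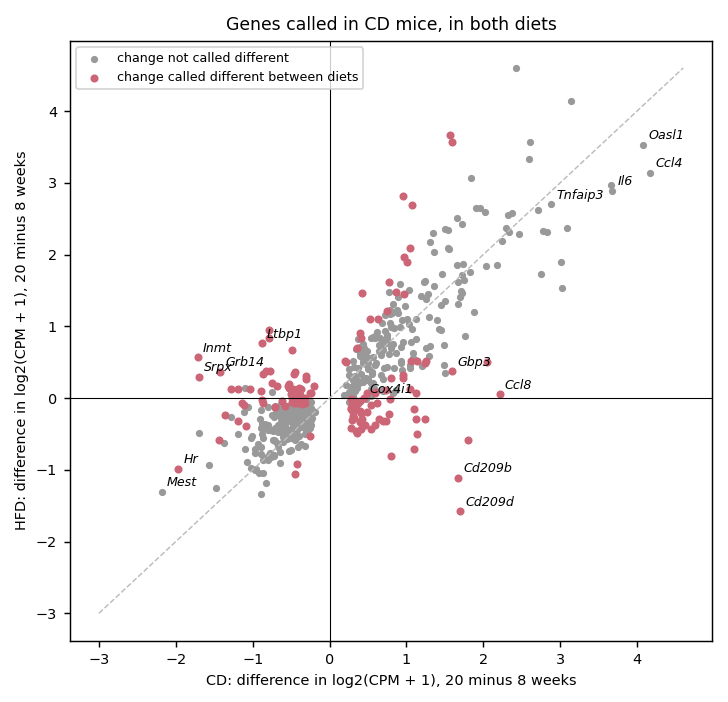
Difference in log2(CPM + 1), 20 minus 8 weeks, in HFD (vertical) against CD (horizontal) for the 530 CD DEGs, with the 140 whose change differed between the diets in red and a dashed line of equal change. Most points share the sign in both diets (440 of 530), and the genes were chosen by their change in CD.

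The lectin genes of the Cd209 family moved in opposite directions. Cd209a rose in CD from 0.441, 1.24 and 2.32 CPM to 3.61, 5.81 and 14.8 CPM, without overlap, and Cd209b and Cd209d rose 3.18-fold and 3.25-fold with overlapping groups. Their HFD changes were -0.58 ± 0.35, -1.11 ± 0.38 and -1.58 ± 0.33, and the diets differed for each (interaction adjusted p = 0.00212, 0.00125 and 0.000122). These receptors mark resident macrophages and dendritic cells. They are close paralogs at low level, so reads may have been shared among them, and the family was singled out after its values were seen. Cd209f and Cd209g did not pass in CD (adjusted p = 0.36 and 0.371), and Cd209b lost its call in 13 of 27 alternatives. All 8-week CD values of Cd209a lay under the level cut, so it was tested because of its 20-week CD values.

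At 34 weeks of CD, a group of 8 mice not used in the tests, levels of the inflammatory genes varied widely. Il6 was at 2.20, 7.23 and 37.4 CPM (lowest, median, highest), Ccl4 at 3.81, 16.7 and 109 CPM and Cxcl10 at 24.3, 85.6 and 174 CPM, each with a median below that of the 20-week mice. The Il6 median was also below that of the 8-week mice (16.1 CPM), and every Cxcl10 value was below every 8-week value. The Ccl4 median was above that of the 8-week mice (4.88 CPM). The rise from 8 to 20 weeks thus did not continue to 34 weeks for these genes. The summed macrophage markers had a median of 4803 CPM at 34 weeks, between 1558 and 17165 CPM, which was above the 20-week median of 2082 CPM. The summed respiratory chain genes had a median of 17377 CPM (12753 to 23380 CPM), against 15214 CPM at 20 weeks. The 34-week values were not tested against the earlier groups.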

How the data were processed

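RNA-seq of the floating adipocyte fraction gave a single table with a CPM column per mouse, into which the 3 technical libraries of each mouse had been merged. Per the labels, reads from stranded poly(A) libraries were aligned to GRCm38 with STAR and counted per gene with featureCounts (Subread 1.5.1), and the CPM values were deposited by the authors. The deposited CPM columns add up to exactly 1000000 each, as they would without a TMM factor. Dividing by the smallest step of a column returned whole reads (100% of values within 0.1 read) and with them the depth of each mouse, 10562845 to 14292115 over the 12 mice. Counting error is therefore small except for genes of a few CPM. Columns are named by mouse number within a group, and all 30 pairs of mice within the CD groups differed beyond sampling noise.

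CD mice at 20 and 8 weeks were compared on log2(CPM + 1) with limma 3.58.1 in R 4.3.3 (eBayes with trend, two-sided, 10 residual degrees of freedom), for genes with mean log2(CPM + 1) above 2, with Benjamini-Hochberg adjustment over all 9927. The interaction of time with diet used 24 mice (20 residual degrees of freedom). Alternatives covered pseudocounts, filters, scaling (TMM, median of ratios), edgeR 4.0.16 and DESeq2 1.42.0 on the whole reads (edgeR called 606 genes), weights, a macrophage covariate, the replicate number and each mouse left out. The fit was tested on simulated data first. Named genes were the 10 largest rises and falls without overlap, up to 4 DEGs of each process or cell type list (or the 2 nearest where fewer than 2 passed), and 5 defining adipocyte genes, some of which are not reported here. The members and lists were chosen with earlier results of these data known, and the NF-κB, cytokine, Cd209, Hippo, Smad, tissue handling and mitochondrial rRNA groups were added after the values were seen. Isg15, Ifih1, Ifit1 and Oas2 are further members of their list. Of the Entrez identifiers, 93.5% matched RefSeq, 26 symbols turned into dates were passed over, and promoter windows and positions are RefSeq GRCm38.p6.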

Additional observations from a re-analysis of the deposited data

Results flagged for a closer look

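Among the 167 named genes, 42 had a change from 8 to 20 weeks that differed between HFD and CD by the interaction test, beside 25.6% of all genes tested. For 30 of them the fitted changes had opposite signs. The change in HFD minus that in CD, on the log2 scale, was negative for Cd209d (-3.28), Cd209b (-2.78), Cd209a (-2.38), Acss2 (-1.91), Rbp4 (-1.84), Slc25a1 (-1.12), Acaa1b (-0.84), Cd55 (-0.80), Uqcr11 (-0.62), Adipoq (-0.60), Mrpl20 (-0.58), Cox6b1 (-0.46), Cox4i1 (-0.45), Auh (-0.44), Atp5o (-0.44) and Mrps18c (-0.43). It was positive for Hsp90b1 (0.34), Ski (0.53), Mbp (0.53), Dhrs3 (0.80), Ikbkb (0.81), Mmp19 (1.01), Angpt1 (1.06), Lama3 (1.21), Ajuba (1.31), Fam20c (1.41), Ltbp1 (1.64), Grb14 (1.80), Srpx (1.99) and Inmt (2.29). For the other 12 the sign was shared, with differences of Ccl8 (-2.16), Gbp3 (-1.21), Bmp2 (-0.63), Birc2 (-0.53), Tbk1 (0.34), Ifnar1 (0.42), Tnip2 (0.47), Dusp9 (0.86), Gli2 (0.87), Hr (0.99), Egr2 (1.13) and Itga5 (1.55). Of the 42 genes, 31 were DEGs in CD.

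Single mice lay far from the rest of their group in 23 of 360 groups of 6 examined (6.39%), of which 18 were genes and 5 summed marker levels. Chance alone flags about 1 group in 20. The gap to the nearest mouse is given as a share of the group's range. In the 8-week group, mouse 6 stood apart for Ccl5 (9.12 CPM against 0.602 CPM in the next mouse, share 0.796), Lif (9.44 against 1.30 CPM, 0.785), Hif1a (0.694) and Tbk1 (0.68) on the high side and Hsd11b1 (0.814) on the low side. In the 20-week group, mouse 3 was lowest for Npr3 (65.1 against 271 CPM, 0.67), Myc (0.662), Cd209d (0.679) and the summed endothelial markers (86.7 against 210 CPM, 0.648) and highest for Cidea (0.751). The other 20-week mice that stood apart were mouse 1 for Ikbkb (0.646) and the summed lipid-associated macrophage markers (10795 against 6658 CPM, 0.703), mouse 2 for Slc27a4 (0.811), Fau (0.659) and the summed epididymis and testis markers (0.742), and mouse 4 for Gbp3 (166 against 83.4 CPM, 0.787) and Lrp6 (0.785). The other 8-week mice were mouse 1 for Gbp3 (0.859), mouse 2 for Acaa1b (0.686) and Birc2 (0.744), mouse 3 for Fzd5 (0.746) and the summed skeletal muscle markers (0.643), and mouse 5 for the summed epididymis and testis markers (0.666).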

How the results depend on the processing

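The 530 DEGs (281 higher, 249 lower) came to 526 and 532 with pseudocounts of 0.5 and 4, 585 with a filter at 1, 457 with no filter, 388 in the joint fit of 6 groups (185 higher), 615 and 656 with TMM and median-of-ratios scaling, and 606 with edgeR. DESeq2 called 1151 (591 higher, 560 lower) and array weights gave 1099 (525 higher, 574 lower). At least 2-fold were 131 (103 higher, 28 lower). Without a filter 63.7% of calls were higher, and no scaling moved the median of all genes by over 0.1. With a replicate block the count was 368 (220 higher, 148 lower) and the interaction count 2301. Deviations from the group means correlated at -0.14 to 0.41 between mice that share a number, with 3 of 6 above 0.1. Some mice that share a number thus deviated together. The numbers run within each group and were not taken as pairs in the main fit. Leaving out single mice gave 275 to 889 genes, 170 to 400 higher and 105 to 489 lower, and interaction counts of 2145 to 3384. The interaction count of 2543 was 457 in the joint fit. Of 122 named DEGs, 55 kept the call in all alternatives and 67 lost it in some. Signs changed in 4 genes, none of them a DEG. These were Cidec (0.0473 with the macrophage covariate, -0.164 to 0.0328 with single mice left out), Fabp4 (-0.0196 to 0.0870), Chuk (-0.00159 to 0.0514) and Ikbkb (-0.110 to 0.00585). The cause of these shifts was not tested. Leaving out mice 1 and 3 of the 20-week group was chosen after seeing the data. Depth limits genes of a few CPM, for which 1 read was 0.0700 to 0.0947 CPM.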

Other observations

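RNA of testis was present in single mice. The summed epididymis and testis markers were at 44.6 CPM in mouse 5 of the 8-week CD group and at 10.9 CPM in mouse 2 of the 20-week group, carried by the sperm chromatin genes Prm1, Prm2, Tnp1 and Tnp2, and group medians were 1.77 and 0.63 CPM. Of 31 such markers, 13 were at 0 in all 12 CD mice.

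Summed markers of B and plasma cells were at 113, 181 and 354 CPM (lowest, median, highest) at 8 weeks and 123, 209 and 343 CPM at 20 weeks of CD. Those of nerve and Schwann cells were at 155, 200 and 232 CPM and 111, 188 and 269 CPM. Mural and smooth muscle markers were at 775, 1005 and 1123 CPM and 576, 794 and 870 CPM. All 3 sums overlapped between the groups.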
